A study of Mus musculus with 4 samples.

Results

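Genes of cell adhesion and of the epithelial-mesenchymal transition (EMT) were followed across 4 mouse tumour libraries, 10 genes in all: the cadherins Cdh1 and Cdh2, the transcription factors Zeb1, Zeb2, Snai1, Snai2 and Twist1, and the mesenchymal products Vim, Fn1 and Sparc. They were taken by symbol, 1 transcript row per gene, and all 10 of 10 were found among 24063 gene symbols. The 4 tumours carry the same label, overexpression of MYC and PMEPA1, in untreated mice labelled C57BL/6 (C57BL6/J in the titles). The genes were delivered through the tail vein by hydrodynamic injection, a rapid high-volume injection that brings plasmid DNA mainly into hepatocytes. The labels do not name the promoter, the organ, the species of the delivered sequences, the age of the mice or whether the tumours came from separate animals, and they list 8 to 10 passages, a term of cell culture, beside a tumour source. With 1 group and no controls, conditions could not be compared. What was measured is the spread between tumours 1, 5, 9 and 10, and p-values cover only that spread, which may be partly technical.

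In EMT, epithelial cells lose the junctions that hold them together and gain a motile, matrix-producing state. E-cadherin, made from Cdh1, joins neighbouring epithelial cells and is tied to the actin cytoskeleton by catenins, while N-cadherin, made from Cdh2, is best known from neural and mesenchymal cells. Hepatocytes are unusual among epithelial cells in carrying both cadherins. The Snail, ZEB and Twist proteins bind E-box elements in DNA, and Snail and ZEB proteins repress Cdh1 there with corepressors. Vimentin is the intermediate filament of mesenchymal cells, endothelium and leukocytes, fibronectin is a matrix glycoprotein that hepatocytes also secrete into plasma, and SPARC is a collagen-binding matrix protein.

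The libraries held 41547938 to 51939623 gene counts, and values are counts per 1000000 (CPM) on library sizes scaled by TMM. At this scale 3 counts correspond to 0.0524 to 0.0892 CPM, a floor that covers counting error only. The source is labelled only as tumour. All 9 hepatocyte markers, with Alb, Ttr and Hnf4a among them, were detected in all 4 tumours, and Alb had 4732, 4520, 5594 and 13400 CPM in tumours 1, 5, 9 and 10. The mouse genes Myc, at 4.86 to 8.58 CPM, and Pmepa1, at 0.922 to 7.28 CPM, give no check of overexpression without a control.

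The adhesion, filament and matrix genes were expressed far above the transcription factors. Per kilobase of transcript, Sparc had a mean of 54.8 ± 11.7 CPM, Cdh1 48.0 ± 14.2, Vim 45.1 ± 7.33, Fn1 41.9 ± 14.0 and Cdh2 27.3 ± 6.10 (SD, n = 4 each). The first 4 of these neighbours in the order did not differ beyond their spread. Expressed genes are those with a mean of at least 1 CPM, and each gene's percentile among them was averaged over the 4 tumours. For the 5 genes these mean percentiles were 86.6, 84.3, 84.2, 82.2 and 75.2. Their SDs were 4.92, 7.21, 2.53, 5.71 and 3.94.

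The transcription factors were lower. Zeb1 had 3.02 ± 0.585 CPM per kilobase, Zeb2 1.14 ± 0.764 and Snai1 0.946 ± 0.322, at mean percentiles of 26.8, 13.2 and 11.7. Snai2, at 0.197 ± 0.119, and Twist1, at 0.195 ± 0.100 CPM per kilobase (SD, n = 4 each), did not reach the expression filter. In each tumour, every one of the 5 factors lay below every one of the 5 effector genes. Neither Zeb2 and Snai1 nor Snai2 and Twist1 differed from each other beyond their spread.

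**Figure D1:**
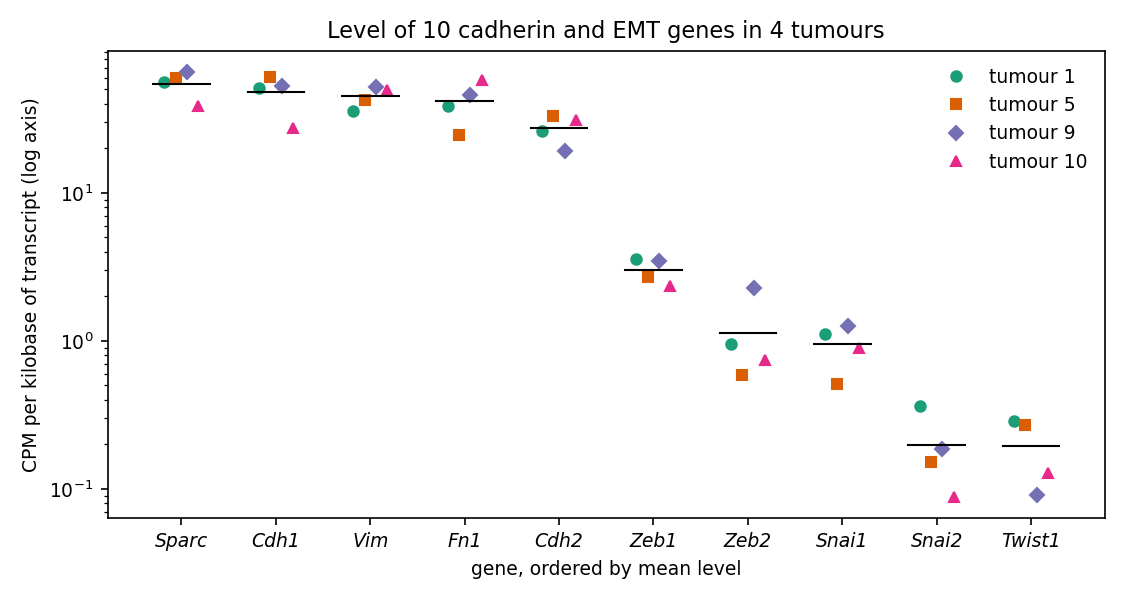
Each point is the level of 1 gene in 1 tumour, in CPM per kilobase of transcript on a log axis, and each bar is the mean of the 4 tumours. The 5 genes on the left have means from 27.3 to 54.8, and the 5 transcription factors on the right have means from 0.195 to 3.02.

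The members differed between tumours by more than counting error, and by less than 1 log2 unit of SD. All 8 expressed members varied more than counting error allows (Poisson heterogeneity chi-square test, Benjamini-Hochberg adjustment over 13129 genes, threshold 0.05), where the share of all expressed genes was 98.7%. With 5% technical variation allowed for, 8 of 8 still did, against 94.1% of all genes. None of the 8 reached an SD of 1 on the log2 CPM scale, against 16.6% of all expressed genes, and their median SD was 0.43 against 0.45 over all genes. Zeb2 had the widest spread of the 8, with an SD of 0.85, and Vim the narrowest over the 4 tumours, with an SD of 0.24.

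Each tumour was also set against the rest by edgeR's quasi-likelihood test, with Benjamini-Hochberg adjustment across every gene and tumour. No member passed for any tumour, and 0% of all genes did. At an unadjusted p of 0.05 the test took Zeb2 for tumour 9 (5.66% of all genes) and Cdh1 and Sparc for tumour 10 (22.1% of all genes), and no member for tumours 1 and 5 (0.716 and 0.922% of all genes). The single tumour is assumed to have the variance seen among the rest, so a difference belongs to that library.

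**Figure D2:**
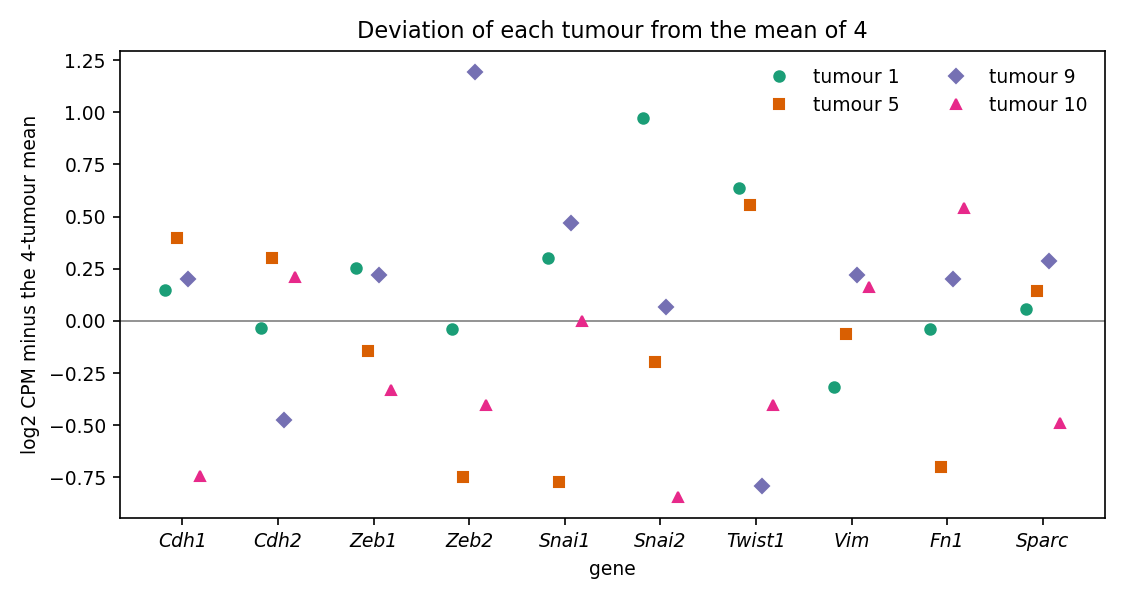
Each point is the log2 CPM of a gene in 1 tumour minus its mean over the 4 tumours, with genes grouped as cadherins, transcription factors and mesenchymal products. Tumour 10 is lowest for Cdh1 (-0.74) and Sparc (-0.49), and tumour 9 is highest for Zeb2 (1.19). Fn1 is highest in tumour 10 (0.54) with TMM scaling and in tumour 9 with scaling by total counts.

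The 2 cadherins had their lowest levels in different tumours. Cdh1 (NM_009864) lies on the plus strand of chromosome 8 at 106603351 to 106670246 (GRCm38, as are all coordinates here). It had 225, 267, 233 and 122 CPM in tumours 1, 5, 9 and 10, on 12881, 11447, 12529 and 4088 counts. Tumour 10 had the lowest level, and the other 3 lay close together. With TMM scaling the 95% Poisson intervals were separate for all 6 pairs of tumours. For tumour 10 against the others the edgeR quasi-likelihood estimate was -0.99 ± 0.26 (log2, SE), with an unadjusted p of 0.0122 and an adjusted p of 0.415. At the adjusted threshold the DESeq2 Wald test called Cdh1 for tumour 10, as it did many other genes of that tumour, and limma-voom did not. The call thus rests on the tool. Without tumour 10 the SD of Cdh1 was 0.13 instead of 0.51.

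Cdh2 (NM_007664, chromosome 18) had 121, 153, 89.5 and 144 CPM in tumours 1, 5, 9 and 10. Its low tumour was tumour 9, where Cdh1 was not low. The intervals were again separate for 6 of 6 pairs, and the edgeR quasi-likelihood estimate for tumour 9 was -0.64 ± 0.34 (log2, SE), with an adjusted p of 0.92.

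Because both levels come from the same library, their ratio does not depend on the scaling. Per kilobase, Cdh1 stood at 1.95, 1.84 and 2.74 times Cdh2 in tumours 1, 5 and 9, and at 0.890 times Cdh2 in tumour 10. The exact binomial 95% intervals of these ratios were 1.90 to 2.01, 1.78 to 1.89, 2.65 to 2.84 and 0.854 to 0.928. Tumour 10 was thus the one tumour with less Cdh1 than Cdh2 transcript per length. The mean log2 ratio was 0.78 ± 0.68 (SD, n = 4), and 1.10 without tumour 10. These intervals cover counting error only, since reads without molecular identifiers are not independent molecules. In bulk tumours, fewer cells of a type and less RNA per cell cannot be told apart.

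**Figure D3:**
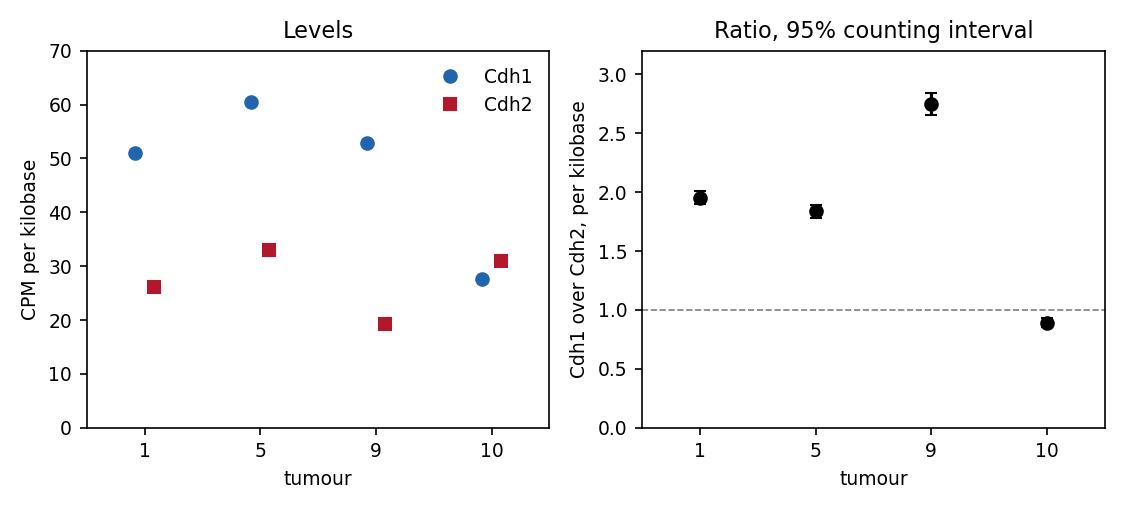
The left panel shows Cdh1 and Cdh2 in CPM per kilobase by tumour, and the right panel their ratio with the 95% counting interval, with a dashed line at 1. The ratio is 1.84 to 2.74 in tumours 1, 5 and 9 and 0.890 in tumour 10.

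Catenins link the cadherin tails to the cytoskeleton. Of 8 catenin genes 5 were expressed, 0 of 5 had an SD of 1 or more (16.6% of all expressed genes), and 4 of 5 were lowest in tumour 10, as were 32.4% of all expressed genes. Ctnnb1, beta-catenin, had 449, 475, 336 and 315 CPM in tumours 1, 5, 9 and 10. Ctnna1, alpha-catenin, which links the complex to actin, had 199, 262, 171 and 243 CPM and was lowest in tumour 9. Ctnnd1, p120-catenin, which keeps cadherins at the membrane, had 156, 171, 144 and 115 CPM, and Ctnnal1, a relative of alpha-catenin, had the widest spread, with 38.0, 33.4, 38.3 and 19.2 CPM.

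Among 14 other cadherin genes, 6 were expressed. Cdh5, the cadherin of endothelial junctions, led them with 18.3, 26.9, 30.0 and 27.2 CPM in tumours 1, 5, 9 and 10. An SD of at least 1 was reached by 2 of the 6 (16.6% of all expressed genes). They were Cdhr2 and Cdhr5, protocadherins of the microvillus brush border. Cdhr2 had 8.37, 22.6, 25.7 and 0.951 CPM, and Cdhr5 had 14.7, 28.5, 5.10 and 22.0 CPM. Their lowest tumours differed, tumour 10 for Cdhr2 and tumour 9 for Cdhr5. Cdh8 and Cdh10 had no count in any tumour, which allows up to 0.0524 to 0.0892 CPM.

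Of the 5 transcription factors, Zeb1 was the most abundant per kilobase in every tumour. Zeb1 (NM_011546, chromosome 18), a zinc finger and homeodomain repressor of epithelial genes, had 20.7, 15.6, 20.2 and 13.7 CPM in tumours 1, 5, 9 and 10. Tumours 1 and 9 were the higher pair and tumours 5 and 10 the lower pair. With TMM scaling the Poisson intervals overlapped within each pair. With scaling by total counts tumours 5 and 10 lay further apart, at 16.2 and 11.1 CPM with the prior count. Within the lower Zeb1 pair, tumour 10 had the lowest Cdh1 and tumour 5 the highest.

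Zeb2 (NM_015753, chromosome 2, 44983632 to 45117395, minus strand), the paralog of Zeb1, had 8.86, 5.39, 20.9 and 6.87 CPM in tumours 1, 5, 9 and 10. Tumour 9 stood above the other 3, which spanned 5.39 to 8.86 CPM, with an edgeR quasi-likelihood estimate of 1.56 ± 0.49 (log2, SE), an unadjusted p of 0.027 and an adjusted p of 0.551. The lowest tumour was tumour 5 with TMM scaling and tumour 10 with scaling by total counts. Without tumour 9 the SD of Zeb2 was 0.36 instead of 0.85. Per kilobase, Zeb1 was 3.71, 4.61 and 3.18 times Zeb2 in tumours 1, 5 and 10 and 1.54 times Zeb2 in tumour 9.

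Most white blood cell markers, like Zeb2, were highest in tumour 9, but the order of the other tumours differed. The 5 pan-leukocyte markers, led by Laptm5 and with Ptprc (CD45) among them, summed to 55.8, 49.9, 234 and 99.7 CPM in tumours 1, 5, 9 and 10, and 5 of 5 were highest in tumour 9. The 10 macrophage and Kupffer cell markers summed to 231, 192, 659 and 368 CPM, with 7 of 10 highest in tumour 9. The other 3, the Kupffer cell markers Clec4f, Marco and Vsig4, were highest in tumour 1, at 20.7, 8.67 and 7.48 CPM against 0.744, 2.68 and 3.26 in tumour 9. The 7 neutrophil markers summed to 10.3, 11.6, 458 and 23.3 CPM, with 7 of 7 highest in tumour 9, and the 12 endothelial markers to 133, 138, 199 and 162 CPM, with 8 of the 11 expressed highest there. The leukocyte, macrophage and neutrophil sums were higher in tumour 10 than in tumour 1, and Zeb2 had the opposite order. Of all expressed genes 21.6% were highest in tumour 9. No marker of these 4 lists was at 0 counts in any tumour. The part of leukocytes and endothelium in the Zeb2 level was not tested.

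The 2 transcript rows of Zeb2 are 9235 and 8898 bases long. The first exon of NM_015753 lies at chromosome 2, 45112823 to 45113279, and exons of Zeb2os, an antisense non-coding gene, cover 332 of its 457 bases (72.6%). NM_015753 had 16, 16, 142 and 23 more counts than the other row in tumours 1, 5, 9 and 10, which is 3.16, 6.93, 12.7 and 9.96% of its counts. The rows differ in length by less than this exon, and what the other row holds at its start was not checked. The count difference is thus a net value, not the reads of this exon. Zeb2os had 0.751, 0.607, 4.41 and 1.49 CPM, and was highest in the same tumour. Whether counting used strand is not given in the sources used here, so reads of the gene and its antisense partner cannot be told apart in this exon. The other Zeb2 row kept tumour 9 highest, with 8.58, 5.02, 18.2 and 6.18 CPM.

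Snai1 (NM_011427, chromosome 2, 167538195 to 167542814, plus strand), the founding Snail repressor, had 1.76, 0.817, 1.99 and 1.43 CPM in tumours 1, 5, 9 and 10, on 101, 35, 107 and 48 counts. Tumour 5 was lowest and the other 3 lay within a narrow range. With TMM scaling 4 of the 6 pairs had overlapping Poisson intervals. The adjusted p of the Poisson heterogeneity test was 3.23e-05, and the gene was no longer called without tumour 5. The 250 bases before its RefSeq start (GRCm38.p6, chr2:167537945-167538194, plus strand) are shown because they hold an E-box of the kind that Snail and ZEB proteins bind, CACCTG. This element is in capitals and reads CAGGTG on the other strand.

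Snai1 promoter: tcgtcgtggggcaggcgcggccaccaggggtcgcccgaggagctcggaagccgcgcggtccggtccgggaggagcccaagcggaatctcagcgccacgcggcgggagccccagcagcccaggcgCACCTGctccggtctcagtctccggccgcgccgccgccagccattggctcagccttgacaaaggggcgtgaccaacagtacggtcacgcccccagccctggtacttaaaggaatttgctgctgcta

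RefSeq promoter sequences were matched for 5 of the 10 genes, Vim, Zeb2, Snai1, Sparc and Twist1, with 8 start sites in all. The Snai1 window was the only 1 of these 8 with the element on either strand, and 17.2% of 32817 promoter windows of this length hold it. A match is a description of letters and shows no binding.

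Snai2 (NM_011415, chromosome 16, 14705852 to 14709385, plus strand), the Snail paralog also called Slug, rested on 42, 13, 20 and 6 counts in tumours 1, 5, 9 and 10, or 0.734, 0.304, 0.372 and 0.178 CPM. Tumour 1 was highest, with an interval of 0.529 to 0.992 CPM, which is separate from those of tumours 5 and 10. Twist1 (NM_011658, chromosome 12, 33957671 to 33959829, plus strand), a basic helix-loop-helix factor of mesoderm, rested on 27, 19, 8 and 7 counts, or 0.472, 0.444, 0.149 and 0.208 CPM. Only 1 of its 6 pairs, tumours 1 and 9, had separate intervals. With every gene of at least 1 count kept, the Poisson heterogeneity test gave an adjusted p of 0.000346 for Snai2 and 0.00869 for Twist1, where 82.4% of 19162 genes were called. At these counts, changes between most pairs of tumours were not detectable.

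Of 13 further EMT transcription factors 6 reached a mean of 1 CPM. The leading ones were the E proteins, broadly expressed helix-loop-helix partners of Twist: Tcf3 had 115, 117, 83.6 and 47.8 CPM, Tcf4 31.9, 34.1, 35.9 and 32.4, and Tcf12 51.0, 52.7, 45.8 and 31.4. Tcf4 had an SD of 0.08 log2 units, far below the median of all genes. Tbx3, a T-box repressor, had the widest spread, with 4.39, 4.39, 0.558 and 0.862 CPM. No factor passed the adjusted edgeR test.

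Corepressors and turnover factors of Snail and ZEB proteins were all present. Of 14 measured genes 14 were expressed, 0 of 14 had an SD of at least 1 (16.6% of all expressed genes), and 10 of 14 were highest in tumour 1 (21.4% of all expressed genes) and 8 of 14 lowest in tumour 10 (32.4%). Ctbp1, a corepressor recruited by ZEB proteins, had 193, 189, 160 and 114 CPM in tumours 1, 5, 9 and 10. Kdm1a, the histone demethylase LSD1 that Snail recruits, had 101, 124, 100 and 40.6 CPM, and Usp7, a deubiquitinase, 172, 163, 166 and 152 CPM. Ctbp2 varied most, with 11.0, 3.60, 5.34 and 11.7 CPM.

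Of the mesenchymal products, Vim had the smallest spread over the 4 tumours, an SD of 0.24 (0.15 without tumour 1), but without tumour 10 its SD of 0.26 was above the 0.11 of Sparc. Vim (NM_011701, plus strand of chromosome 2, 13573927 to 13582826) had levels of 65.7, 78.2, 95.2 and 91.5 CPM in tumours 1, 5, 9 and 10, a 1.45-fold range. Tumour 1 was lowest, and with TMM scaling the intervals of tumours 9 and 10 overlapped. Its spread lay at percentile 20.4 of all expressed genes. Markers of cell types known to carry vimentin were summed over the same tumours. The sums spanned 4.36-fold for 12 stellate cell and fibroblast genes and 4.69-fold for the leukocyte genes. For 12 endothelial genes the sum spanned 1.5-fold, close to the range of Vim. The part of these cell types in the Vim level was not tested. Per kilobase, Vim was 0.703, 0.704 and 0.983 times Cdh1 in tumours 1, 5 and 9 and 1.81 times Cdh1 in tumour 10.

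Krt8 and Krt18, the keratin pair of hepatocytes and other simple epithelia, lay above Vim in every tumour. Per kilobase, Krt8 was 11.0, 17.1, 4.34 and 9.70 times Vim in tumours 1, 5, 9 and 10, and Krt18 was 5.36, 7.56, 3.75 and 6.33 times Vim. Krt19, a bile duct keratin, lay far lower, with 1.45, 11.5, 0.428 and 0.0297 CPM, the last on 1 count. Of 8 other intermediate filament and linker genes with a row, 7 were expressed. Of the 7, only Nes (nestin), at 8.25, 7.89, 1.06 and 2.62 CPM, had an SD of at least 1 (16.6% of all expressed genes). Plec, the linker plectin, had 325, 373, 210 and 272 CPM. The nuclear lamins Lmna and Lmnb1 had 182, 189, 152 and 224 and 198, 183, 111 and 71.7 CPM.

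Sparc (NM_001290817, chromosome 11, 55394500 to 55423183, minus strand) had 147, 156, 173 and 101 CPM in tumours 1, 5, 9 and 10. Tumour 10 was lowest, and with TMM scaling all 6 pairs had separate Poisson intervals. The edgeR quasi-likelihood estimate for tumour 10 was -0.65 ± 0.25 (log2, SE), with an unadjusted p of 0.0448 and an adjusted p of 0.656, and the SD was 0.11 without tumour 10 instead of 0.34. Its 2 transcript rows have equal counts in all 4 tumours. Of 7 relatives of SPARC 4 were expressed: Smoc1, a secreted matrix protein, had 188, 245, 170 and 170 CPM, Smoc2 35.1, 25.8, 41.7 and 41.5, and Fstl1 23.8, 19.6, 26.9 and 8.65. Sparcl1 had 5.68, 11.6, 23.4 and 29.7 CPM and was lowest in tumour 1, not in tumour 10 as Sparc and Fstl1 were.

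Collagens, which SPARC binds, were also lowest in tumour 10. Of 22 mesenchymal matrix and cytoskeleton genes 18 were expressed, and 6 of the 18 had an SD of at least 1 (16.6% of all expressed genes). Of the 18, 15 were lowest in tumour 10 (32.4% of all expressed genes) while 12 were highest in tumour 9 (21.6%). Col1a1 had 101, 62.8, 115 and 26.9 CPM in tumours 1, 5, 9 and 10, Col1a2 96.9, 76.5, 137 and 29.7, and Col3a1 135, 101, 157 and 31.9. Lum, the collagen-binding proteoglycan lumican, spread most, with 5.49, 3.27, 15.5 and 1.69 CPM. The list's median deviation was 0.47, -0.04, 0.74 and -1.13 log2 units, against 0.02 for all expressed genes in tumour 10. None of the 18 passed the adjusted edgeR test, and 10 did at an unadjusted p of 0.05 in tumour 10, where 22.1% of all genes did. The 12 stellate cell and fibroblast markers, 3 of which are these collagens, summed to 425, 304, 517 and 118 CPM, with 11 of 12 lowest in tumour 10 and none at 0 counts. Their part in the Sparc and collagen levels was not tested.

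Fn1 (NM_010233, chromosome 1, 71585520 to 71653200, minus strand) had 327, 207, 387 and 489 CPM in tumours 1, 5, 9 and 10. Tumour 5 was lowest and all 6 pairs had separate Poisson intervals; tumour 10 was highest with TMM scaling, and tumour 9 with scaling by total counts. The edgeR quasi-likelihood estimate for tumour 5 was -0.96 ± 0.47 (log2, SE), with an adjusted p of 0.862. Unlike Sparc and the collagens, Fn1 was not low in tumour 10, and per kilobase it was 0.695, 0.414, 0.701 and 1.52 times Sparc in tumours 1, 5, 9 and 10. The summed hepatocyte markers, 14919, 16115, 20775 and 32790 CPM, were likewise highest in tumour 10, with 7 of 9 markers highest there (35.8% of all expressed genes). Their part in the Fn1 level was not tested.

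Fibronectin is spliced in 3 places, and the 7 RefSeq rows of Fn1 differ by them. The EDA and EDB exons are included in the cellular form made by fibroblasts and in development and are left out of the plasma form made by hepatocytes, and the V part varies between both forms. The 2 exons are printed from GENCODE M21 transcripts because the counts found in them are compared next. EDA lies at chr1:71603660-71603929 and EDB at chr1:71613763-71614035 (GRCm38, minus strand).

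EDA exon: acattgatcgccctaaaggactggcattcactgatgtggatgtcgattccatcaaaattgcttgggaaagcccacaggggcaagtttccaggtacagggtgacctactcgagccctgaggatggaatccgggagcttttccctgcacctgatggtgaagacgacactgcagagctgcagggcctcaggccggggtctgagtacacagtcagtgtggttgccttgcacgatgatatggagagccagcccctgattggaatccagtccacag

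EDB exon: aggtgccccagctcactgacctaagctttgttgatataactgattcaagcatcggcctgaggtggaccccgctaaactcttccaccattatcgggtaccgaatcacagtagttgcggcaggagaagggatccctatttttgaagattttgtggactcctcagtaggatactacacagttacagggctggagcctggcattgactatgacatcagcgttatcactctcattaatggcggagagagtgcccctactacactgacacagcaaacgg

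Few reads were counted only in these exons. The difference between a row with EDA and the same row without it was 39, 46, 51 and 60 counts in tumours 1, 5, 9 and 10, the same in all 3 pairs of rows that differ by EDA alone. For EDB it was 12, 16, 17 and 16 counts. As a share of the Fn1 counts, EDA took 0.208, 0.519, 0.245 and 0.364% and EDB 0.0641, 0.181, 0.0817 and 0.0972%, where the exons make up 3.2 and 3.24% of the row's length. The V part, 360 bases or 4.27% of the length, took 188, 166, 302 and 299 counts, or 1.0, 1.87, 1.45 and 1.82%.

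Tumour 5 had the highest EDA-only share of Fn1 counts and also the fewest Fn1 counts, 8862. Per library the EDA-only reads came to 0.681, 1.07, 0.949 and 1.78 CPM in tumours 1, 5, 9 and 10, so this level was highest in tumour 10, with TMM scaling and with scaling by total counts. The exact 95% binomial interval of the tumour 5 share, 0.380 to 0.692%, was separate from those of tumours 1 (0.148 to 0.285%) and 9 (0.183 to 0.322%) and overlapped that of tumour 10 (0.278 to 0.469%). For EDB the interval of tumour 5, 0.103 to 0.293%, overlapped all others. The V share of tumour 1, 0.866 to 1.16%, was separate from the other 3. In every tumour EDA had more reads of its own than EDB, 3.25, 2.88, 3.0 and 3.75 times as many, although EDB is 3 bases longer. Reads that cross into a neighbouring exon would count on both kinds of row, and neither the counting rule nor the read length is given in the sources used here, so these shares are no inclusion rates.

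**Figure D4:**
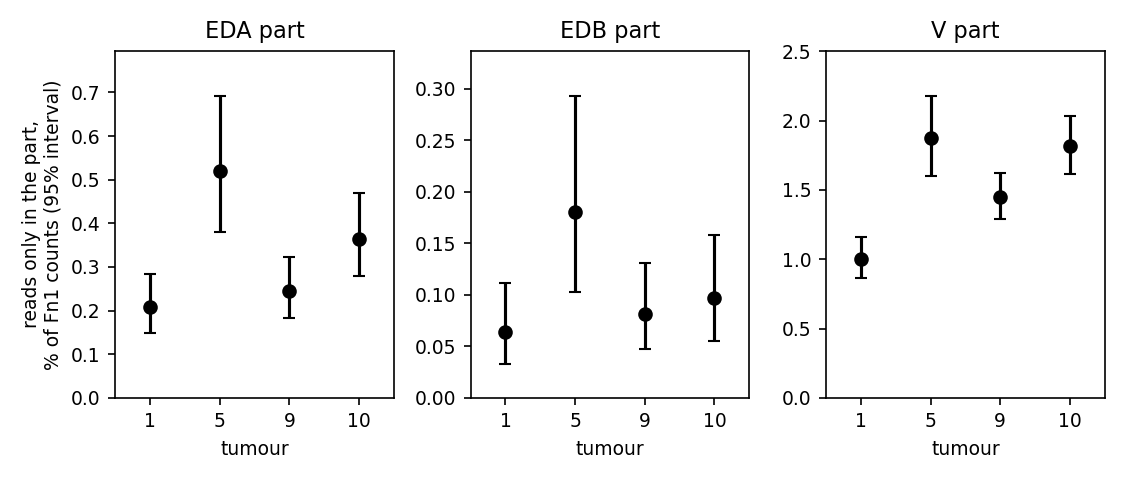
Points are the reads counted on Fn1 rows with a part and not on rows without it, as a percentage of the Fn1 counts of each tumour, with exact 95% binomial intervals and a separate axis from 0 for each part. Tumour 5 has the highest EDA share, 0.519%, on the fewest Fn1 counts, and tumour 1 the lowest V share, 1.0%.

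Receptors and partners of fibronectin did not move as a block. Of 12 genes 11 were expressed, and 2 of the 11 had an SD of at least 1 (16.6% of all expressed genes). Of the 11, 5 were highest in tumour 9 (21.6% of all expressed genes) and 5 lowest in tumour 10 (32.4%). Itgb1, the beta subunit of the main fibronectin receptor, had 244, 288, 243 and 175 CPM in tumours 1, 5, 9 and 10. Sdc4, a syndecan that binds fibronectin's heparin-binding part, had 162, 245, 322 and 266 CPM, and Tgm2, a crosslinking transglutaminase, 214, 336, 151 and 337 CPM. Itga8, an integrin subunit of stellate and smooth muscle cells, varied most, with 3.13, 2.01, 4.15 and 0.624 CPM.

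Epithelial genes were high where Cdh1 was highest, in tumour 5, but were not uniformly low in tumour 10. Of 20 junction and keratin genes 18 were expressed, and 10 of the 18 had an SD of at least 1 (16.6% of all expressed genes). Of the 18, 12 were highest in tumour 5 (21.2% of all expressed genes), 8 lowest in tumour 9 (25.5%) and 7 lowest in tumour 10 (32.4%). Krt8 had 713, 1317, 407 and 874 CPM in tumours 1, 5, 9 and 10, Krt18 269, 452, 273 and 442, and the desmosomal cadherin Dsg2 107, 140, 61.8 and 71.5. Dsc2, the other kind of desmosomal cadherin, spread most, with 8.09, 11.7, 0.186 and 46.9 CPM, so that its highest level was in the tumour with the lowest Cdh1. Of 10 epithelial splicing and transcription regulators 3 were expressed: Esrp2, the splicing factor of epithelial exons, had 101, 103, 103 and 134 CPM, Elf3 12.9, 17.0, 11.4 and 9.43, and Klf4 2.08, 3.71, 4.49 and 2.05. None of the genes of either list passed the adjusted edgeR test.

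The lowest Cdh1 and the highest mesenchymal list median were found in different tumours. Tumour 10 had the lowest Cdh1, the lowest Cdh1 to Cdh2 ratio and the highest Vim to Cdh1 ratio. It also had the lowest Sparc, Zeb1 and Snai2 and a mesenchymal list median of -1.13. With TMM scaling, the Poisson intervals of Zeb1 and of Snai2 overlapped between tumours 5 and 10. Fn1 was highest in tumour 10 with TMM scaling and in tumour 9 with scaling by total counts. Tumour 9 had the highest mesenchymal list median (0.74), Zeb2, Vim, Snai1 and Sparc. It also had the lowest Cdh2 and the highest Cdh1 to Cdh2 ratio. Unlike Cdh1, the junction and keratin list had its lowest median in tumour 9. That median was 0.12, 0.80, -0.76 and -0.35 in tumours 1, 5, 9 and 10. Of the 8 expressed members, 4 were highest in tumour 9 (21.6% of all expressed genes), 3 were lowest in tumour 10 (32.4%) and 3 in tumour 5 (20.3%). Tumours 1, 5 and 10 were highest for 1, 2 and 1 members (21.4, 21.2 and 35.8% of all expressed genes), and tumours 1 and 9 lowest for 1 each (21.8 and 25.5%).

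**Figure D5:**
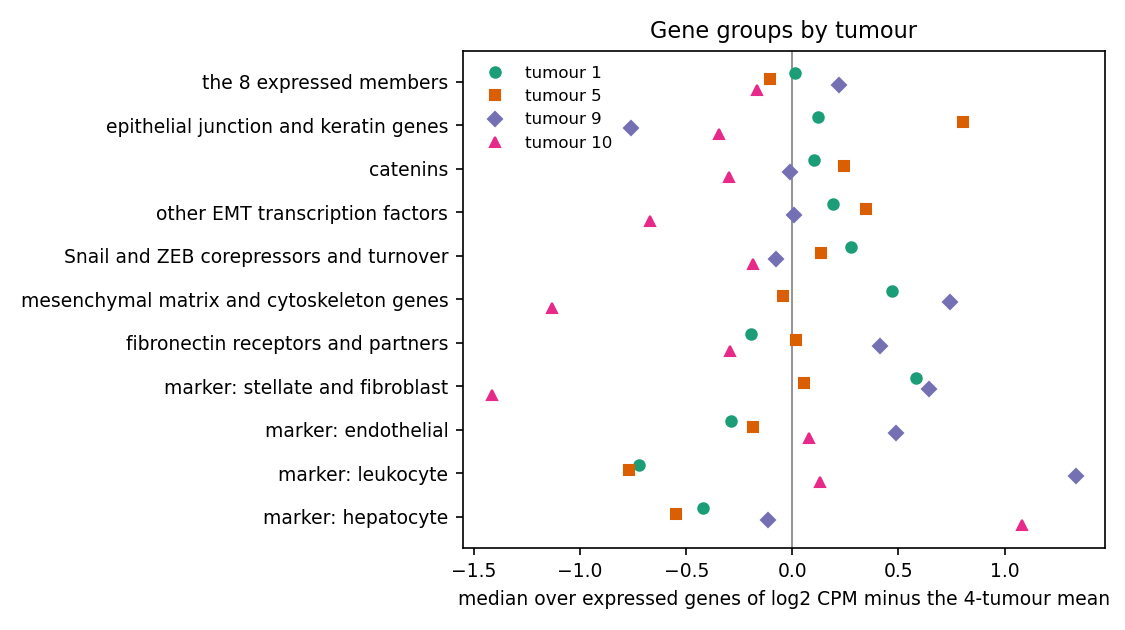
Each point is the median over the expressed genes of a list of log2 CPM minus the 4-tumour mean, in 1 tumour. The mesenchymal list lies at 0.74 in tumour 9 and -1.13 in tumour 10, and the junction and keratin list at -0.76 and -0.35. The 8 expressed members of the 10 genes lie between -0.16 and 0.22.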

How the data were processed

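Poly-A RNA of 4 tumours was sequenced after TruSeq library preparation, per the labels' protocols. The submitters' processing notes name FastQC 0.11.8 and GRCm38; which aligner and counter were used is not given in the sources used here. The authors' deposited counts are whole reads per RefSeq transcript row (33984 rows), and a read can be counted on several rows of a gene. The deposited FPKM, named per the file headers, gave transcript lengths (whole within 0.01 bases), and the deposited TPM, which sums to 1000000, served only as an alternative for the cadherin ratio. Each gene was represented by its row with the highest mean count. In R 4.3.3, edgeR 4.0.16 gave TMM factors of 1.10, 1.03, 1.10 and 0.802 for tumours 1, 5, 9 and 10; the prior count on the log2 scale was 2. Scaling by total counts would shift the median gene by 0.14, 0.04, 0.13 and -0.32 log2 units. Genes with a mean of at least 1 CPM entered a chi-square test of Poisson heterogeneity and the two-sided quasi-likelihood test of edgeR (each tumour against the other 3), both with Benjamini-Hochberg adjustment. The SE given with an edgeR estimate is the absolute log2 estimate divided by the square root of its F statistic. DESeq2 1.42.0, limma 3.58.1, other scalings and filters, summed rows and leaving out each tumour were alternatives. The tests were checked on simulated data.

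Members, gene lists (198 entries) and tests were chosen with earlier results of these data known, and no p-value was adjusted over a list alone. Of each pathway list the text names the 3 expressed genes of highest mean CPM plus the gene whose SD was largest. Cdh8, Cdh10, the marker genes Ttr, Hnf4a, Laptm5 and Ptprc and the genes of the closing section were picked with their values in view. Genes with a similar pattern were to be named for members with a range of at least 2 log2 units, and none had one. Symbols of 2 list entries matched no row, so these were not analysed here, and Adgre1 was found under an older symbol. Gene coordinates are those of GENCODE M21 (GRCm38), and promoters those of RefSeq on GRCm38.p6.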

Additional observations from a re-analysis of the deposited data

How the results depend on the processing

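Depth limits Snai2 and Twist1, which rest on 6 to 42 and 7 to 27 counts per tumour. No paired analysis was possible because there is 1 group. With the main filter, edgeR, DESeq2 and limma-voom each tested 13129 expressed genes, 8 of them members. Of genes differing in 1 tumour from the other 3, the edgeR test gave 0 for each; the DESeq2 Wald test gave 29, 47, 331 and 1371 for tumours 1, 5, 9 and 10, with 1 member, Cdh1 in tumour 10, and limma-voom gave 0 for each. With no filter beyond 1 count there were 2, 0, 6 and 123 genes and no member, and 3761 instead of 2178 genes had an SD of at least 1. Leaving out 1 tumour gave 0 to 2 genes for tumour 1, 0 to 1 for tumour 5, 0 to 28 for tumour 9 (28 without tumour 10) and 0 to 411 for tumour 10 (411 without tumour 9), with no member among them. Members with an SD of at least 1 numbered 0 to 1 (1 without tumour 1), and members beyond counting error 7 to 8 (7 without tumour 5). With scaling by total counts the SD rose from 0.29 to 0.49 for Zeb1 and from 0.34 to 0.55 for Sparc. Levels with the prior count in tumours 1 and 10 were then 72.5 and 73.4 CPM for Vim and 134 and 115 CPM for Cdh2. With TMM scaling tumour 10 lay above tumour 1 for Cdh2. The mean log2 ratio of Cdh1 to Cdh2 ranged from 0.56 to 1.10 when 1 tumour was left out, and was 0.78 with deposited TPM or summed rows. Summing rows moved the mean log2 CPM of 7 members beyond 1 SD, in both directions. It lifted Fn1 from 8.39 to 10.64, as its 7 rows hold the same reads, and Sparc from 7.15 to 7.60. Cdh1, Cdh2, Vim, Zeb1 and Snai1, with 1 row each, fell, Cdh1 from 7.67 to 7.12.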

Other observations

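Of the 7 epithelial regulators that were too low on average for the expression filter, 3 had most of their reads in tumour 5, where Cdh1 was highest. They were picked after their values were seen and carry no test. Esrp1, the paralog of the splicing factor Esrp2, had 0.245, 2.03, 0.130 and 0 CPM in tumours 1, 5, 9 and 10. Ovol1, a zinc finger factor that opposes EMT, had 0.332, 3.27, 0.149 and 0.119 CPM, and Grhl3 had 0.0524, 0.560, 0.0931 and 0.0297 CPM. The kidney-type cadherin Cdh16 had 0.0349, 2.59, 0 and 0.0595 CPM, on 2, 111, 0 and 2 counts. Esrp1 rested on 14, 87, 7 and 0 counts and Grhl3 on 3, 24, 5 and 1. Values on 3 counts or fewer lie at or below the floor and are no measured levels. Ovol2 had its top level, 1.92 CPM, in tumour 9, Grhl1 in tumour 10, at 0.892 CPM, and Ehf in tumour 1, at 0.402 CPM, and Grhl2 stayed at or below 0.112 CPM in every tumour. The bile duct markers Krt19 and Epcam were also highest in tumour 5, at 11.5 and 9.71 CPM against at most 1.45 and 1.19 CPM elsewhere; their part in these levels was not tested.

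Outliers were looked for in 15 series of 4 values by the gap of the outermost tumour over the range. These were the 10 genes, the cadherin ratio, the 3 Fn1 parts and the percentage difference of the Zeb2 rows. None passed Dixon's 95% critical value for 4 samples, and Cdh1 in tumour 10 came nearest, with 0.782.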
